A study of Mus musculus with 16 samples.

Results

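The genes described here are the mouse potassium channel genes, taken as every row of the gene count table whose symbol is Kcn, then letters, then a number. The table of 52997 gene symbols held 92 of them, and 91 had at least 1 read in some library. The exception was Kcnk16, with no read in any of the 16 libraries. Those with at least 10 reads in 4 or more libraries were analysed, which left 24, and the fit across all genes tested 22 of these. The rule used the number of reads and no difference between groups.

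The RNA came from muscle mesenchymal stromal cells, the connective tissue cells that lie among the fibres of hindlimb skeletal muscle, in C57BL/6 mice aged 8 weeks. The mice were given either calcitonin gene-related peptide (CGRP), a neuropeptide that sensory nerve endings release, or phosphate-buffered saline (PBS), into the peritoneal cavity, and cells were taken 4 h or 8 h afterwards. This gives 4 groups, named below PBS 4 h, CGRP 4 h, PBS 8 h and CGRP 8 h, with 4 biological replicates in each by the submitters' account. Each of the 16 libraries came from 1000 sorted cells. The labels name no allele, transgene or further agent in any group. The sources used here do not give the sorting gate, the dose, or how many mice stand behind a replicate.

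Potassium channels let potassium ions leave the cell down their gradient and so hold the membrane potential negative. Voltage-gated (Kv) channels are built of pore subunits, and the modifier subunits of the Kv5, Kv6, Kv8 and Kv9 families form no channel alone but join Kv2 subunits and change how those open. Calcium- and sodium-activated channels respond to ions inside the cell, inward rectifiers and K2P (leak) channels act near rest, and auxiliary subunits adjust gating and trafficking. The CGRP receptor couples to Gs and cyclic AMP, and in arterial smooth muscle CGRP is known to open ATP-sensitive potassium channels, whose pore subunit is encoded by Kcnj8 and whose sulfonylurea receptor is encoded by Abcc9.

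The libraries held 6373713 to 10011920 counts. From 21138 to 22341 genes were detected in 12 libraries, and 23294 to 25579 in the other 4, which were replicate 4 of PBS 4 h, replicates 1 and 4 of PBS 8 h and replicate 3 of CGRP 4 h. Results that rest on these 4 are given with and without them. Levels are CPM, counts scaled to library size after TMM, with SD over n = 4. The markers of mesenchymal stromal cells were high throughout, with a summed level over 8 genes of 136892 to 184214 CPM, and Pdgfra, Dcn, Lum and Osr1 were among them. Most of that sum was Gsn, with a mean of 106021 CPM over the libraries. Endothelial markers (6 genes) summed to 77.9 to 144 CPM, macrophage and myeloid markers (8) to 4.84 to 9.36, lymphocyte markers (7) to 0 to 1.97 and satellite cell markers (5, with Myf5 at 0) to 0.484 to 14.6. Nearly all of the endothelial sum was Tek, with a mean of 105 CPM over the libraries. The defining endothelial genes Pecam1, Cdh5, Kdr, Emcn and Cldn5 averaged 0.763, 0.182, 0.811, 0.333 and 0.194 CPM. Most of the satellite sum was Chodl (mean 3.75 CPM), while Pax7 averaged 0.0559 CPM. The 5 erythroid markers summed to 0.970 to 3.04 CPM in 13 libraries and to 44.2 to 47.6 CPM in replicate 4 of PBS 4 h, replicate 3 of CGRP 4 h and replicate 4 of CGRP 8 h.

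Few potassium channel genes were measured well in these cells. All 92 together took a median of 0.0212% of the counts of a library. Their summed level was 214 CPM in PBS 4 h (192 to 245), 191 in CGRP 4 h (175 to 209.6), 235 in PBS 8 h (209.8 to 249.5) and 201 in CGRP 8 h (175 to 212), and the 24 analysed genes made up 93.1% to 95.1% of it. By role, the analysed genes were 6 of the 30 Kv pore genes, 3 of the 10 Kv modifier genes and 6 of the 8 genes grouped as calcium- or sodium-activated. They also took in 1 of the 15 inward rectifier genes, 3 of the 14 K2P genes and 5 of the 15 auxiliary genes. Roles were assigned by subfamily letters, and Kcnu1 was placed in the calcium- or sodium-activated group on its letters alone. Of the 68 genes that were not analysed, 53 reached 10 reads in no library and 15 did so in 1 to 3 libraries. Just outside the threshold were Kcna6, Kcnc4 and Kcnv2, each with 10 reads in 3 libraries, and just inside it were Kcnh6, Kcnip4 and Kcnu1, each with 10 reads in 4. In all 16 libraries, 15 of the analysed genes reached 10 reads. Only Kcnu1, the gene of a channel of sperm, passed through 1 group alone, CGRP 8 h, where it averaged 1.87 ± 0.661 CPM against 0.560 to 0.683 CPM in the other group means. It had to differ there and was not tested.

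Per length of exon, Kcnk5 was the highest potassium channel gene in every group. It encodes TASK-2, a K2P channel sensitive to pH. Its level was 10.2 ± 1.69 CPM per kilobase in PBS 4 h, 14.4 ± 3.88 in CGRP 4 h, 8.95 ± 1.72 in PBS 8 h and 7.94 ± 1.505 in CGRP 8 h. In 3 groups its libraries lay above all those of the next gene, and in PBS 8 h they overlapped those of Kcng1, the modifier subunit Kv6.1, at 8.37 ± 2.73 CPM per kilobase. Other genes at high levels were Kcnn1 (SK1, a small-conductance calcium-activated channel) at 3.12 to 5.53 CPM per kilobase, Kcns3 (Kv9.3, a modifier subunit) at 2.87 to 4.90 and Kcne4 (an auxiliary subunit) at 2.53 to 3.69, as group means. The libraries of Kcnn1 and Kcns3 overlapped in PBS 4 h and CGRP 8 h. Kcns3 lay above Kcnn1 in CGRP 4 h (3.975 to 6.14 against 2.37 to 3.972 CPM per kilobase) and below it in PBS 8 h (2.13 to 3.65 against 4.11 to 6.80). Those of Kcne4 overlapped those of Kcns3 in every group, so the order of that pair is not resolved. Kcng1 moved most in the order, from the sixth place in PBS 4 h to place 13 in CGRP 4 h, then to the second in PBS 8 h and the fourth in CGRP 8 h. At the low end stood Kcnma1, the pore of the large-conductance calcium-activated (BK) channel, at 0.0488 to 0.147 CPM per kilobase.

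**Figure D1:**
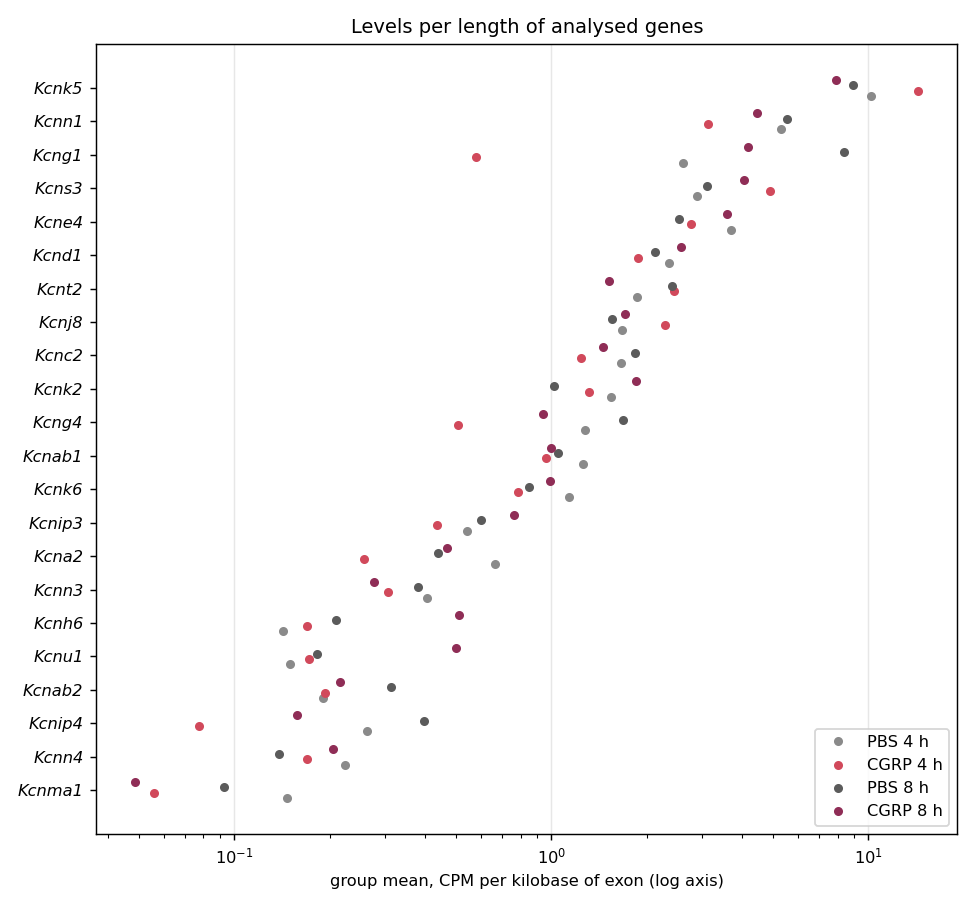
Group mean of CPM per kilobase of exon (log axis) for 22 of the 24 analysed potassium channel genes, 1 point per group, ordered by the mean over groups. Kcnk5 is highest in each group, and Kcng1 spans the widest range among the genes above 1 CPM per kilobase, from 0.578 in CGRP 4 h to 8.37 in PBS 8 h.

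The first comparison asks what CGRP did 4 h after injection. Of the 22 tested potassium channel genes, 4 fell (Kcng1, Kcna2, Kcng4 and Kcnn1) and 1 rose (Kcns3). That is 5 of 22, beside 16.2% of all 13949 genes tested that were called in either direction, 8.37% called lower and 7.84% called higher. A call is an adjusted p under 0.05 in edgeR's quasi-likelihood test with Benjamini-Hochberg adjustment over all genes tested, and rose and fell stand for calls. The median log2 fold change over the 22 genes was -0.40, beside -0.00 over all genes, and 17 of the 22 values were below 0. In bulk RNA, fewer cells of a type and less RNA per cell cannot be told apart.

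Among the Kv modifier genes, Kcng1 (Kv6.1, chr2:168260117-168281736, minus strand, mm10) showed the largest fall. Its level was 11.97, 6.66, 9.55 and 18.7 CPM in the 4 PBS libraries and 2.64, 2.06, 2.01 and 3.72 CPM in the 4 CGRP libraries, in the order of the replicates. Every CGRP library lay below every PBS library. The log2 fold change was -2.17 ± 0.35 (SE), a fall of 4.51-fold, with an adjusted p of 0.000343 from edgeR. The call held when any 1 of the 16 libraries was left out, and without the 4 libraries with the most genes detected the value was -1.73 ± 0.36 with an edgeR adjusted p of 0.00521.

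Kcng4 encodes Kv6.4, of the same modifier family (chr8:119623854-119635680, minus strand). It was at 3.70, 7.18, 5.29 and 3.33 CPM after PBS and at 1.83, 2.66, 1.01 and 2.26 CPM after CGRP, again without overlap. Its log2 fold change was -1.33 ± 0.44 with an edgeR adjusted p of 0.0418. This call is weak: it was lost without replicate 1, 3 or 4 of CGRP 4 h, replicate 2 or 3 of PBS 4 h, replicate 1 of CGRP 8 h or replicate 2 of PBS 8 h, with edgeR adjusted p up to 0.144, and without the 4 libraries with the most genes detected (0.0651).

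Kcns3 (Kv9.3, chr12:11090202-11151056, minus strand) went the other way. It was at 8.12, 6.86, 7.23 and 14.2 CPM after PBS and at 12.7, 12.6, 17.3 and 19.4 CPM after CGRP. Replicate 4 of PBS 4 h lay within the range of the CGRP libraries, and the other 3 PBS libraries lay below all of them. It rose by a log2 fold change of 0.76 ± 0.25 with an edgeR adjusted p of 0.0373. It was lost without replicate 3 or 4 of CGRP 4 h or replicate 1, 2 or 3 of PBS 4 h (edgeR adjusted p 0.0748 to 0.126) and in a fit of the 2 groups alone (0.0505). Without the 4 libraries with the most genes detected it was called at 1.01 ± 0.25 (0.0122).

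Kcnb2, a Kv2 pore gene of the kind whose products the modifier subunits join, was near the limit of detection in every group, with 0 to 14 reads per library and at most 0.135 CPM per kilobase. Across the 16 libraries the median level was 3.25 CPM per kilobase for Kcng1, 3.59 for Kcns3 and 0.876 for Kcng4. The remaining modifier genes Kcng2, Kcng3, Kcnf1, Kcns1, Kcns2, Kcnv1 and Kcnv2 had at most 20 reads in a library.

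**Figure D2:**
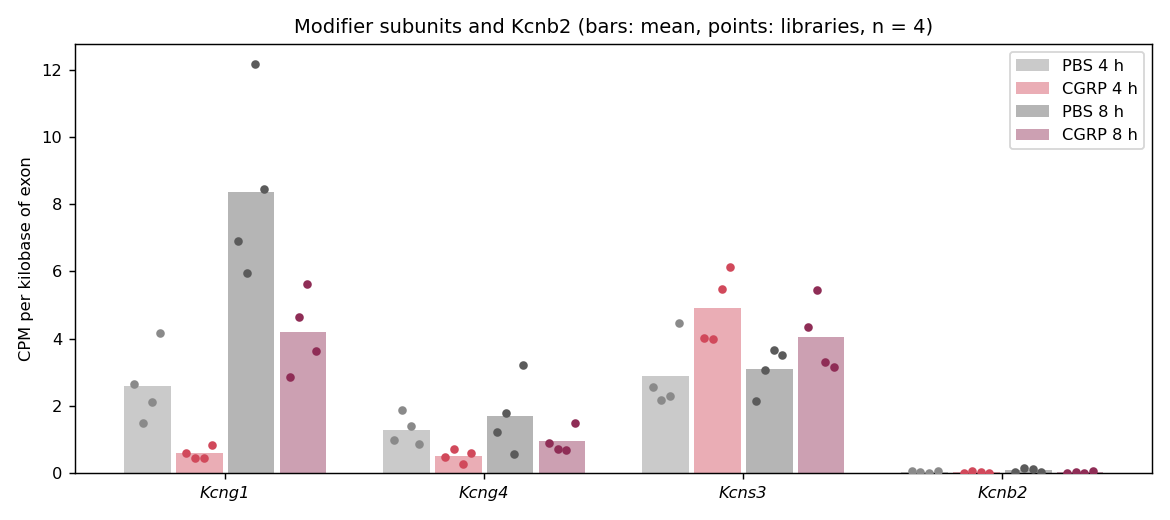
CPM per kilobase of exon for the 3 analysed Kv modifier genes and the Kv2 pore gene Kcnb2, with bars for the group mean and points for the 4 libraries of each group. Kcng1 is lower after CGRP than after PBS at both times without overlap, and Kcnb2 stays at or below 0.135 CPM per kilobase.

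Among the Kv pore genes, Kcna2 (Kv1.2, a channel well known from axons, chr3:107101146-107115005, plus strand) fell. It was at 6.70, 7.90, 7.49 and 9.58 CPM after PBS and at 2.13, 2.66, 4.65 and 2.79 CPM after CGRP. The groups did not overlap. The log2 fold change was -1.38 ± 0.37 (edgeR adjusted p 0.0140), it was -1.54 ± 0.44 without the 4 libraries with the most genes detected (0.0267), and the call was lost without replicate 1 of CGRP 4 h (-1.22, 0.0509). None of the other 5 passed the test, Kcnc2 (-0.41), Kcnd1 (-0.33) and Kcnh6 (0.23) among them. Kcnc2 encodes Kv3.2, a fast delayed rectifier, Kcnd1 the A-type channel Kv4.1 and Kcnh6 a channel of the ERG family.

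Among the calcium- and sodium-activated genes, Kcnn1 (SK1, chr8:70842049-70863258, minus strand) fell by a smaller factor. It was at 26.2, 19.2, 24.3 and 27.7 CPM after PBS and at 12.5, 10.9, 15.7 and 18.2 CPM after CGRP. Its 2 groups did not overlap. The log2 fold change was -0.77 ± 0.18 (edgeR adjusted p 0.00492), which is 1.70-fold, and the call held without any 1 library and without the 4 libraries with the most genes detected (-0.74 ± 0.21, 0.0247). Kcnma1 had a value of -1.43 ± 0.67 (edgeR adjusted p 0.160) on 0.102 to 4.69 CPM in these 8 libraries. Kcnt2, the sodium-activated channel Slick, had 0.39 ± 0.19 (edgeR adjusted p 0.188).

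The K2P, inward rectifier and auxiliary genes gave no call at 4 h. Kcnk5 was at 37.2, 29.4, 30.6 and 41.6 CPM after PBS and at 64.7, 50.3, 32.4 and 48.4 CPM after CGRP, a log2 fold change of 0.50 ± 0.18 (edgeR adjusted p 0.0652). It was called without the 4 libraries with the most genes detected (0.76 ± 0.16, 0.00552), without replicate 3 of CGRP 4 h alone (0.00828), without replicate 4 of PBS 4 h (0.0428) or of CGRP 8 h (0.0492), with DESeq2 (0.0454) and with no filter on low counts (0.00460). Kcnj8 (Kir6.1, the ATP-sensitive channel pore) ranged from 1.29 to 8.74 CPM after PBS and from 3.15 to 10.6 CPM after CGRP, and its value of 0.42 ± 0.46 did not pass (edgeR adjusted p 0.605). Its partner gene Abcc9 averaged 6.84 CPM after PBS and 3.69 CPM after CGRP at 4 h, and 8.499 and 3.80 CPM at 8 h, with edgeR adjusted p of 0.117 and 0.0632. At 4 h Abcc9 ranged from 3.28 to 13.9 CPM after PBS and from 2.23 to 5.28 CPM after CGRP, with overlap. At 8 h the ranges were 6.18 to 10.6 and 2.60 to 4.59 CPM, without overlap. Abcc9 is also among the 11 pericyte and smooth muscle markers summed below. Of the auxiliary genes, Kcne4 had -0.42 ± 0.48 in all libraries and -1.31 ± 0.38 without the 4 libraries with the most genes detected, where it was called (edgeR adjusted p 0.0303). Without replicate 3 of CGRP 4 h alone, which stood at 16.2 CPM while its group mates stood at 4.06 to 4.92, the value was -1.14 ± 0.39 and was not called (0.0529). Kcnab1 (a Kv beta subunit, -0.39 ± 0.26) and Kcnip3 (a calcium-binding partner of Kv4 channels, -0.33 ± 0.48) did not pass. The 5 analysed genes not described singly (Kcnn3, Kcnn4, Kcnk6, Kcnip4 and Kcnab2) had group means of 0.281 to 4.71 CPM, and none of the 4 tested was called at either time. Kcnip4 had 103 reads in all and shares 4.63% of its exon bases with 5730480H06Rik on the other strand, which had 599.

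Markers of other cell types and of stromal cells moved with the 4 h comparison. The 11 pericyte and smooth muscle markers summed to 155 to 213 CPM after PBS and to 95.3 to 120 CPM after CGRP, without overlap, and 3 of the 7 tested fell (Cspg4 -1.20, Ndufa4l2 -1.27 and Myh11 -2.60). Their defining genes Rgs5, Higd1b and Tagln were at or near 0, with 0 to 1.25, 0 to 0.754 and 0 to 0.258 CPM over the libraries. The 7 Schwann and glial markers summed to 16.3 to 24.2 CPM after PBS and to 9.04 to 13.4 CPM after CGRP, and 1 of the 5 tested, S100b, fell (-0.83), while the defining gene Sox10 was at 0 to 0.208 CPM. The 8 stromal markers summed to 160563 to 184214 CPM after PBS and to 143390 to 150684 CPM after CGRP, also without overlap. Of these markers 4 fell at 4 h (Osr1 -0.74, Lum -0.78, Pdgfra -0.40 and Dcn -0.28) and Ly6a rose (0.26). The part of these shifts in the falls of Kcng1, Kcna2, Kcng4 and Kcnn1 was not tested.

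Promoters of some genes that moved are shown because the CGRP receptor signals through cyclic AMP, whose response element (CRE) is the palindrome TGACGTCA. RefSeq (build GRCm38.p6, the same coordinates as mm10) gave starts for 18 of the 24 analysed genes, 33 starts in all. Kcng1 was not among these genes, so its promoter was not searched. The 250 bases before each were searched on both strands for TGACGTCA and for its core TGACG, which is part of the full element, and for the E-box CACGTG. The most upstream start is shown for Kcna2 (chr3:107101317-107101566, plus strand), Kcng4 (chr8:119635681-119635930, minus), Kcnn1 (chr8:70863259-70863508, minus), Kcns3 (chr12:11150843-11151092, minus) and Kcnt2 (chr1:140245468-140245717, plus). Each is written from 5′ to 3′ on its own strand, and capitals mark a motif match.
Kcna2: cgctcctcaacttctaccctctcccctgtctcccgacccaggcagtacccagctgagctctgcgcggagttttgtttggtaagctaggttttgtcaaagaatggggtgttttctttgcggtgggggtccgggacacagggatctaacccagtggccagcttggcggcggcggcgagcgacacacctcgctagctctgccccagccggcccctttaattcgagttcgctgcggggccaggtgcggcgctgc
Kcng4: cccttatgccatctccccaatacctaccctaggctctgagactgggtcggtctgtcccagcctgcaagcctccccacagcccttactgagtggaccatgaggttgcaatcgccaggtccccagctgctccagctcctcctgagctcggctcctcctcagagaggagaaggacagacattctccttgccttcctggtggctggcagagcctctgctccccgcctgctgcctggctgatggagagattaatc
Kcnn1: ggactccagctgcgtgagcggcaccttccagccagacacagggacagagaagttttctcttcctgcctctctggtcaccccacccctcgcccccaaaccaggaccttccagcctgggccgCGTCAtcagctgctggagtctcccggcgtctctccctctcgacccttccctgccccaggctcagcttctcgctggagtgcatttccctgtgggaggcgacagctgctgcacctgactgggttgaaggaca
Kcns3: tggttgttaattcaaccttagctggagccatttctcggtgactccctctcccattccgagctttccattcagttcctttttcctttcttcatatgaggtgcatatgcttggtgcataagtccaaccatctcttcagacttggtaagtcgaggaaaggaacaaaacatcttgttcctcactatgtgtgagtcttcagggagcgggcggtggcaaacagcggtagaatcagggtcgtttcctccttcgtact
Kcnt2: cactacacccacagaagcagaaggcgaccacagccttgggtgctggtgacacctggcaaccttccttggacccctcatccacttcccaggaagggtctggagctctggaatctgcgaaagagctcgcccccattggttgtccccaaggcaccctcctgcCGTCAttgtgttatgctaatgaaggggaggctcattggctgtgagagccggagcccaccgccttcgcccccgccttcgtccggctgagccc
The core was found in the promoters of Kcnn1 and Kcnt2 above, both as CGTCA, its reverse complement. The start of Kcnk5, which is not shown, held none of these motifs. None of the 33 starts held the full CRE, which 1.55% of all 32851 RefSeq starts hold, and 2.49% of the 12829 starts of tested genes. The core was in 5 of the 33 starts, those of Kcnab2, Kcne4, Kcnj8, Kcnn1 and Kcnt2, beside 17.8% of all starts and 25.9% of those of tested genes. The E-box was in 4 of the 33 (genes Kcnab1, Kcne4 and Kcnn4), beside 6.02% and 8.20%. These are descriptions of letters and say nothing of binding.

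At 8 h fewer genes were called between CGRP and PBS than at 4 h, among the potassium channel genes and among all genes tested. A lower number of calls does not show that fewer genes differed. Kcng1 and Kcnt2 fell and none rose: 2 of 22, beside 8.67% of all genes tested called in either direction, 3.67% lower and 5.00% higher. The median log2 fold change of the 22 was -0.10, beside -0.02 over all genes, with 12 values below 0, and 4 of the 22 had an unadjusted edgeR p under 0.05. At 4 h that number was 7. The share of all genes under that limit is not given here, so these numbers are not a result about potassium channel genes. Without the 4 libraries with the most genes detected, which leaves 2 libraries in PBS 8 h, none of the 22 was called. Of all 13949 genes tested, 192 were called in that fit, in place of 1210.

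Kcng1 was at 31.2, 26.8, 54.8 and 38.2 CPM in the PBS 8 h libraries and at 12.9, 20.9, 25.3 and 16.4 CPM in the CGRP 8 h libraries. As at 4 h, every CGRP library lay below every PBS library, although both groups were higher than their 4 h counterparts. The log2 fold change was -0.99 ± 0.28 (edgeR adjusted p 0.0313), a fall of 1.99-fold. The call was lost without replicate 1, 2 or 4 of CGRP 8 h or replicate 3 or 4 of PBS 8 h (edgeR adjusted p 0.0519 to 0.111) and without the 4 libraries with the most genes detected (-1.10 ± 0.30, 0.0712).

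Kcnt2 (chr1:140246158-140612067, plus strand) was at 14.8, 12.9, 20.8 and 18.005 CPM after PBS and at 11.9, 9.27, 12.6 and 8.10 CPM after CGRP. The groups did not overlap, with the highest CGRP library at 12.6 and the lowest PBS library at 12.9 CPM. This was a log2 fold change of -0.65 ± 0.20 (edgeR adjusted p 0.0397). It was lost without replicate 1, 2 or 4 of CGRP 8 h or replicate 1, 3 or 4 of PBS 8 h (edgeR adjusted p 0.0542 to 0.135) and without the 4 libraries with the most genes detected (-0.67 ± 0.25, 0.184).

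None of the other genes called at 4 h was called at 8 h. Kcng4 had -0.87 ± 0.42 (edgeR adjusted p 0.216), Kcns3 0.40 ± 0.25 (0.363), Kcnn1 -0.31 ± 0.18 (0.320) and Kcna2 0.05 ± 0.37 (0.961). Kcna2 was at 2.12, 3.45, 6.14 and 10.6 CPM after CGRP, around the 3.65 to 7.12 CPM of the PBS libraries. Kcnk2, the mechanosensitive K2P channel TREK-1, is named after its values were seen: it was at 4.07, 4.25, 7.29 and 4.57 CPM after PBS and at 10.1, 9.92, 7.81 and 8.87 CPM after CGRP. Those groups did not overlap, but its value of 0.87 ± 0.33 did not pass the test (edgeR adjusted p 0.109). Of its exon bases, 12.2% overlap the antisense gene A430027H14Rik, and the library kit does not mark strand. That antisense gene had 50 reads in all, beside 931 for Kcnk2.

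At 8 h the pericyte and smooth muscle marker sums were 193 to 253 CPM after PBS and 156 to 224 CPM after CGRP, with overlap and with no marker called. The Schwann and glial sums were 18.2 to 26.7 and 14.3 to 22.3 CPM, also with overlap. The 6 endothelial markers, nearly all Tek, summed to 109 to 129 CPM after PBS and 77.9 to 105 CPM after CGRP. Those sums did not overlap, and the 1 endothelial marker tested was not called. The 8 stromal markers summed to 160345 to 173489 CPM after PBS and 136892 to 156100 CPM after CGRP, without overlap. Among them Dcn, Lum and Pdgfra fell and Ly6a rose. The 8 myofibre markers summed to 156 to 251 CPM after PBS and 108 to 157 CPM after CGRP, with Acta1 called lower (-0.78). The part of these marker shifts in the results at 8 h was not tested. Counts of the gene model Gm10800 were 1.77% to 2.45% of the total in replicates 1, 2 and 3 of PBS 8 h, against 0.536% to 1.01% in the remaining libraries, and their part was not tested either.

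**Figure D3:**
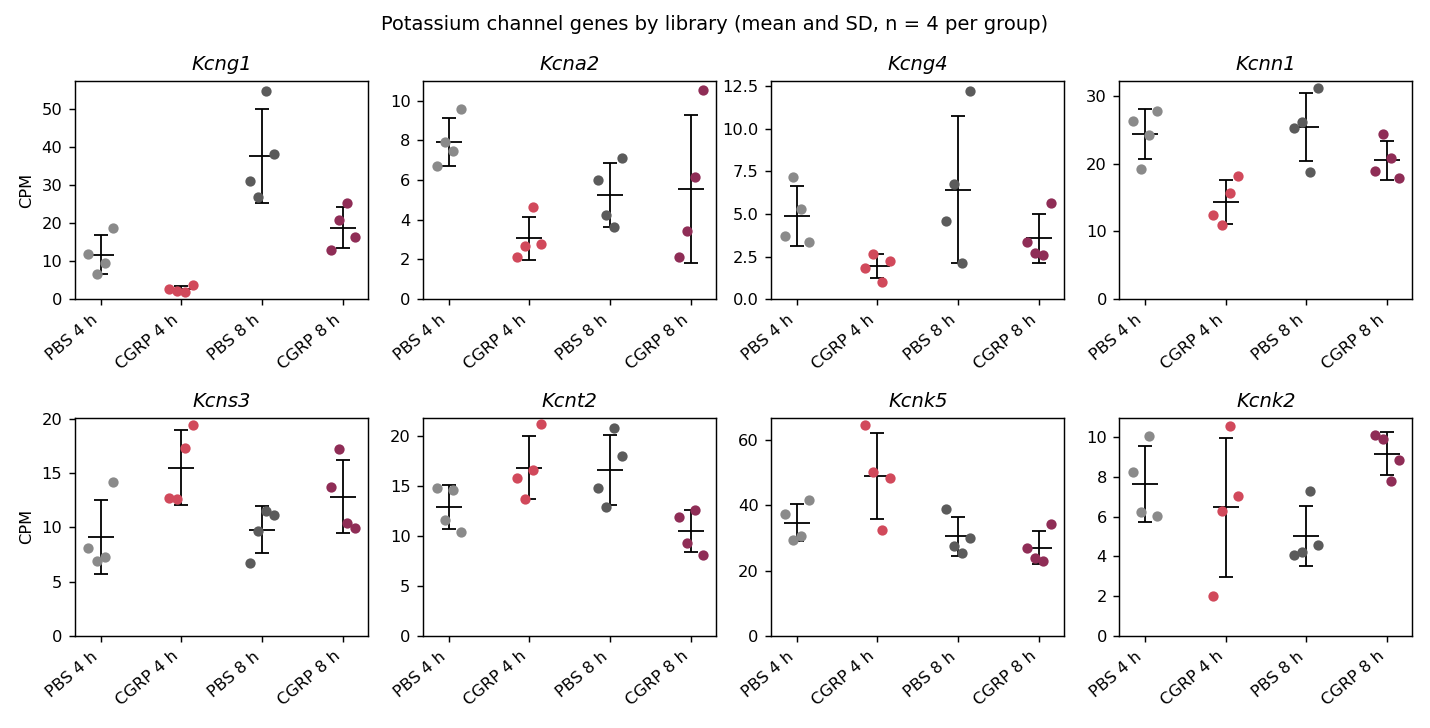
CPM in every library for 8 potassium channel genes, with the mean and SD of each group (n = 4). For Kcng1 the CGRP libraries lie below the PBS libraries at 4 h (2.01 to 3.72 against 6.66 to 18.7 CPM) and at 8 h (12.9 to 25.3 against 26.8 to 54.8 CPM), and for Kcnt2 they lie below them at 8 h.

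**Figure D4:**
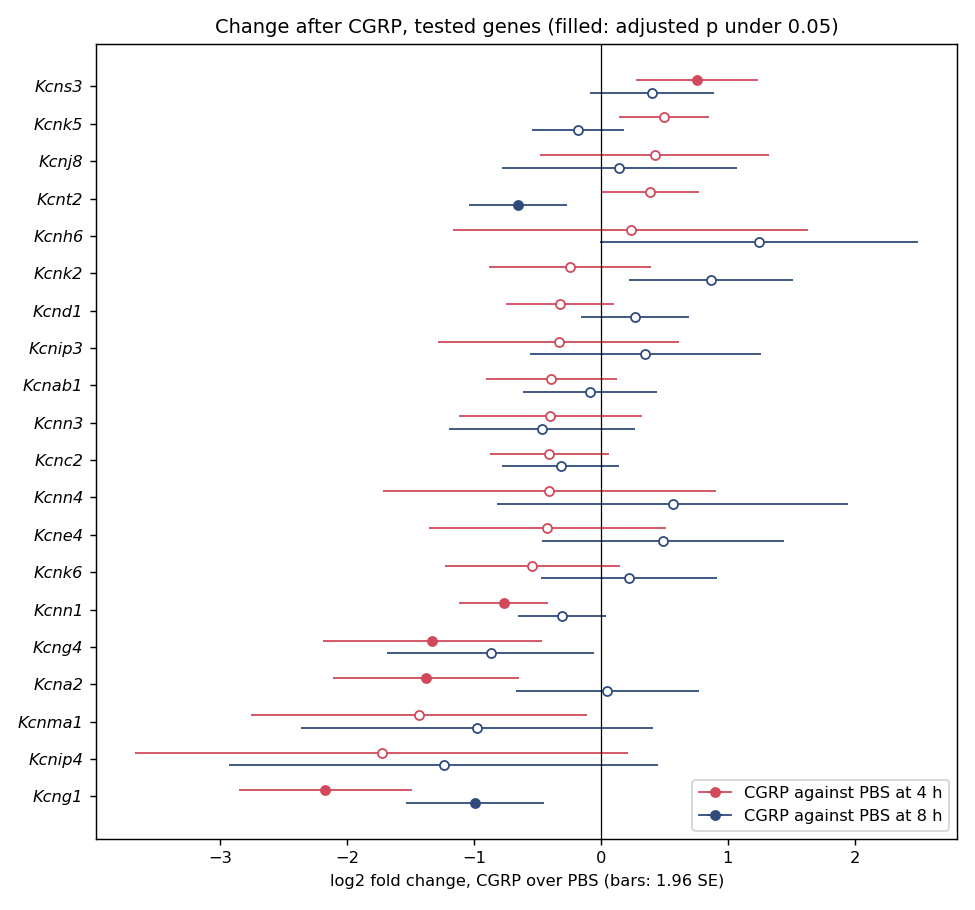
Log2 fold change of CGRP over PBS at 4 h and at 8 h for 20 of the 22 tested potassium channel genes, with approximate 95% intervals and filled points for adjusted p under 0.05. At 4 h 5 points are filled, 4 of them left of 0, and at 8 h 2 are, Kcng1 and Kcnt2, both left of 0.

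The difference between the effects of CGRP at 8 h and at 4 h was tested in the same fit. None of the 22 potassium channel genes was called by edgeR's quasi-likelihood test, beside 1.12% of all genes tested, while 5 had an unadjusted p under 0.05. Here too the share of all genes under that limit is not given, so the 5 are not a result about these genes. DESeq2 called 1 of the 22, Kcnt2 (adjusted p 0.0160), and edgeR with no filter on low counts called 3 (Kcng1, Kcnk5 and Kcnt2). For Kcnt2 the difference was -1.04 ± 0.28 (edgeR adjusted p 0.0683), from 0.39 at 4 h to -0.65 at 8 h, and it was called without replicate 2 of PBS 8 h (-1.15, 0.0411). For Kcna2 it was 1.43 ± 0.52 (0.191), for Kcng1 1.18 ± 0.45 (0.214) and for Kcnk5 -0.68 ± 0.26 (0.213). Without the 4 libraries with the most genes detected none of the 22 was called, beside 64 of all genes tested in place of 156. The differences there were -0.98 ± 0.34 for Kcnt2 (edgeR adjusted p 0.231), 2.01 ± 0.65 for Kcna2 (0.189), 0.63 ± 0.47 for Kcng1 (0.660) and -0.73 ± 0.24 for Kcnk5 (0.207). The smaller fall of Kcng1 at 8 h and the absence of a Kcna2 call there are therefore not shown to differ from 4 h by the main test.

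Time after injection was compared within each treatment. After PBS, Kcng1 was the 1 gene of the 22 called higher at 8 h than at 4 h, beside 0.265% of all genes tested, and none was called lower. It rose from 11.7 ± 5.15 to 37.7 ± 12.3 CPM, with every 8 h library above every 4 h library, a log2 fold change of 1.68 ± 0.29 (edgeR adjusted p 0.0152). The call was lost without replicate 3 of PBS 4 h (1.60, 0.0531) and in a fit of the 2 groups alone (0.0637), and without the 4 libraries with the most genes detected the value was 2.13 ± 0.33 (0.0124).

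After CGRP, Kcng1 rose from 2.61 ± 0.797 CPM at 4 h to 18.9 ± 5.39 CPM at 8 h, a log2 fold change of 2.86 ± 0.34 (edgeR adjusted p 4.27e-05). That is 1 of 22 called higher, beside 4.20% of all genes tested, and Kcnk5 and Kcnt2 were called lower, 2 of 22 beside 3.05%. Kcnk5 went from 49.0 ± 13.2 to 27.0 ± 5.12 CPM (-0.87 ± 0.18, edgeR adjusted p 0.00498), with replicate 3 of CGRP 4 h inside the range of the 8 h libraries. Kcnt2 went from 16.8 ± 3.16 to 10.5 ± 2.14 CPM (-0.67 ± 0.20, edgeR adjusted p 0.0381) without overlap. The Kcng1 and Kcnk5 calls held without any 1 library and without the 4 libraries with the most genes detected (2.76 ± 0.34 and -1.02 ± 0.15). That of Kcnt2 was lost without replicate 1, 3 or 4 of CGRP 4 h or replicate 2 or 4 of CGRP 8 h (edgeR adjusted p 0.0596 to 0.148), in a fit of the 2 groups alone (0.0540) and without the 4 libraries with the most genes detected (0.0792). These time comparisons use the same libraries as the CGRP comparisons.

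Genes of the same physiology outside the name rule were counted in 5 lists, and counts near the share over all genes are not a result about a list. Partner subunits of potassium channels had 10 of 16 genes tested, with none higher and 1 lower at 4 h, and 2 higher and 1 lower at 8 h, beside 7.84% higher and 8.37% lower of all genes at 4 h and 5.00% and 3.67% at 8 h. The gene that fell at both times was Lrrc55, which encodes a gamma subunit of the BK channel: it averaged 9.64 ± 3.90 CPM in PBS 4 h against 4.05 ± 2.20 in CGRP 4 h (-1.27 ± 0.33, edgeR adjusted p 0.0125), and 17.2 ± 2.24 in PBS 8 h against 6.49 ± 1.97 in CGRP 8 h (-1.39 ± 0.32, 0.00889). Its call at 4 h was lost without replicate 4 of CGRP 4 h or replicate 2 of PBS 4 h. Its call at 8 h was lost without the 4 libraries with the most genes detected. Cav1, which encodes a caveolin of membrane caveolae, was among the 2 that rose at 8 h (0.57). The median log2 fold change of the list was -0.27 at 4 h and -0.12 at 8 h.

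Of the potassium pump and cotransporter genes 18 of 24 were tested, with 2 higher and 3 lower at each time, beside 16.2% of all genes called at 4 h and 8.67% at 8 h. Fxyd1 (phospholemman), a regulator of the sodium-potassium pump, fell at both times (-0.38 ± 0.08 and -0.33 ± 0.09). It averaged 149 ± 15.1 CPM in PBS 4 h against 114 ± 1.80 in CGRP 4 h, and 146 ± 8.99 in PBS 8 h against 116 ± 9.89 in CGRP 8 h. The potassium-chloride cotransporter gene Slc12a4 fell at 4 h (-0.29). At 8 h Fxyd5 (0.64) and Fxyd6 (0.55) rose. The median was 0.07 at 4 h and -0.15 at 8 h.

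Of the calcium, sodium and mechanically gated cation channel genes 25 of 35 were tested, with 1 higher and 4 lower at 4 h, beside 16.2% of all genes called, and 2 higher and 3 lower at 8 h, beside 8.67%. At 4 h the T-type calcium channel gene Cacna1g fell from 31.3 ± 6.82 to 12.2 ± 3.40 CPM (-1.37 ± 0.22, edgeR adjusted p 0.000284), while the L-type gene Cacna1c rose from 9.40 ± 1.66 to 19.6 ± 2.47 CPM (1.05 ± 0.24, 0.00403). The mechanosensitive channel gene Piezo2 fell (-1.04), as did Cacna2d1 (-0.41), an auxiliary subunit of calcium channels. At 8 h Scn7a, the sodium-sensing channel gene, fell (-0.70 ± 0.11), as did Cacnb4 (-0.93), while Trpc4 (1.88) and Piezo1 (0.67) rose. The median was -0.16 at both times.

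Of the chloride channel genes 23 of 28 were tested, with 2 higher and 1 lower at 4 h and 3 higher and 2 lower at 8 h, where 16.2% and 8.67% of all genes were called. Ttyh1, of the tweety family, rose from 1.53 ± 0.657 to 33.0 ± 13.2 CPM at 4 h (4.39 ± 0.36, edgeR adjusted p 1.12e-07) and from 1.11 ± 0.690 to 11.6 ± 2.99 CPM at 8 h (3.39 ± 0.40, 3.13e-05), and Clic4, an intracellular chloride channel gene, rose at both times (0.95 and 0.64). Ano10 fell at 4 h (-0.30), and at 8 h Clic1 rose (0.33) and Clcn2 fell (-0.75). The median was -0.06 at 4 h and 0.06 at 8 h. All 4 genes of intracellular potassium channels outside the name rule were tested: Tmem38b, a TRIC channel of the endoplasmic reticulum, rose at 4 h (0.83 ± 0.20, edgeR adjusted p 0.00531), from 8.06 ± 1.22 to 14.4 ± 1.55 CPM, and none was called at 8 h. The medians over all genes tested were -0.00 at 4 h and -0.02 at 8 h. Without the 4 libraries with the most genes detected, the calls at 8 h numbered 0 partner, 1 pump or cotransporter, 2 cation channel and 2 chloride channel genes. Of all 13949 genes tested, 192 were called at 8 h in that fit, in place of 1210. The calls of pump and cotransporter genes at 4 h numbered 2, and the number over all genes at 4 h in that fit is not given here.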

How the data were processed

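Polyadenylated RNA of 1000 sorted cells was sequenced per library, as pairs of 25 bases from a Nextera XT kit that does not mark strand, per the labels' protocols. The authors deposited raw read counts per gene symbol, and the submitters' processing notes name STAR 2.5.4, featureCounts and mm10. The sources used here do not give the annotation, the strand setting or how multi-mapping reads were treated. All 16 columns were used. Within-group replicates were different libraries, with chi-square 6.52 to 22.7 times its degrees of freedom over 24 pairs.

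Counts were fitted with edgeR 4.0.16 in R 4.3.3: filterByExpr over the 4 groups (13949 genes), TMM, 1 mean per group, robust quasi-likelihood with 12 residual degrees of freedom, 2-sided tests and Benjamini-Hochberg adjustment over all genes tested. The fit was tested on simulated data. SE is the size of the log2 fold change divided by the square root of F. Kcnab2 and Kcnu1 were analysed but did not pass filterByExpr. Alternatives were RLE and upper-quartile scaling, other filters, DESeq2 1.42.0, fits of 2 groups, a replicate block and leaving out libraries. Loci and exon lengths come from GENCODE M21 (GRCm38), which held all 92 symbols, and promoters from RefSeq.

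The members and lists were chosen with earlier results of these data known. The naming rule takes every called potassium channel gene, the highest per length in each subfamily, and up to 4 called genes with the smallest p from each list at each time. The motifs and the fit without 4 libraries were chosen after seeing the data. Depth limits the low genes: reads were amplified by PCR and carry no molecular identifiers. The values of 2 analysed potassium channel genes and of some list and marker genes are not reported here.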

Additional observations from a re-analysis of the deposited data

Results flagged for a closer look

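For the 18 named genes, the highest and lowest library of each of the 4 groups was compared with its group mates by Dixon's gap ratio at its 95% critical value. Of the 72 sets of a gene and a group, 3 held a library that stood apart, and chance alone marks about 5% of such sets. Kcnab1 was at 15.1 CPM in replicate 4 of PBS 4 h, above the 8.84 to 9.81 CPM of the other 3 libraries. Kcnab1 was at 6.59 CPM in replicate 2 of PBS 8 h, below the 9.57 to 10.1 CPM of its group mates. Kcne4 was at 16.2 CPM in replicate 3 of CGRP 4 h, where the others were at 4.06 to 4.92 CPM. Replicate 4 of PBS 4 h and replicate 3 of CGRP 4 h are among the 4 libraries with the most genes detected, and their part in these values was not tested.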

How the results depend on the processing

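The falls of Kcng1 and Kcnn1 at 4 h and the changes of Kcng1 and Kcnk5 with time after CGRP were called, in 1 direction, under every alternative run. Leaving out each of the 16 libraries in turn gave 3 to 6 potassium channel genes called at 4 h, 0 to 3 at 8 h, 0 to 1 for the difference between times, 0 to 1 for time after PBS and 2 to 3 for time after CGRP. In these fits all genes called numbered 1487 to 2243 at 4 h (2262 in the main fit) and 586 to 1297 at 8 h (1210). They numbered 85 to 203 for the difference, 16 to 278 for time after PBS and 669 to 1018 for time after CGRP. For the lists the ranges at 4 h and 8 h were 0 to 3 and 3 to 4 for partner subunits, 2 to 6 and 2 to 6 for pumps and cotransporters, 3 to 7 and 1 to 6 for cation channels, and 2 to 3 and 3 to 5 for chloride channels. Without the 4 libraries with the most genes detected, the count at 8 h was 0 potassium channel genes in place of 2, 0 partners, 1 pump or cotransporter, 2 cation channels and 2 chloride channels, that of pumps and cotransporters at 4 h was 2, and all genes called were 192 at 8 h in place of 1210 and 64 for the difference in place of 156. The difference between times gave 3 potassium channel genes with no filter and 1 with DESeq2 in place of 0 (456 and 427 of all genes). Time after PBS gave 0 in place of 1 when only its 2 groups were fitted, and all genes called were 133 there, 422 with no filter and 334 with DESeq2 in place of 72. Partner subunits at 4 h gave 3 with no filter and 2 with the filter of 10 reads in 4 libraries, with DESeq2 and with the replicate block, in place of 1, and cation channels at 8 h gave 3 with the replicate block and with only the 2 groups in place of 5. Over all genes, libraries of the same number did not deviate together (correlations -0.0863 to 0.0882 over 24 pairs, beside -0.0856 to 0.0708 over 72 pairs of other numbers). A correlation over all genes cannot show whether the replicate numbers pair libraries in some genes. With the block 6 potassium channel genes were called at 4 h in place of 5, Kcnk5 (0.48) being added, and 2 at 8 h. No called gene changed direction. Among reported values that were not called, Kcna2 at 8 h turned to -0.0623 with the block. Without the 4 libraries, Kcnab1 (0.0831) and Kcnk5 (0.0248) turned at 8 h and Kcnj8 (-0.0916) at 4 h. Leaving out 1 library gave -0.43 to 0.33 for Kcna2, -0.28 to 0.0885 for Kcnab1 and -0.0571 to 0.34 for Kcnj8 at 8 h, and -0.0336 to 0.58 for Kcnh6, -0.88 to 0.0188 for Kcnip3 and -0.0135 to 1.05 for Kcnj8 at 4 h. The cause of these changes was not tested. Genes near 10 reads per library have wide errors.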
